A study of Mus musculus with 8 samples.

Results

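The 7 Clec4 genes described here (Clec4a1, Clec4a2, Clec4a3, Clec4b1, Clec4d, Clec4e and Clec4n) encode C-type lectin receptors of myeloid cells and lie side by side in the Dectin-2 cluster on mouse chromosome 6. They were taken by Ensembl identifier from the 56748 rows of the deposited count table, and all 7 matched a row and passed the filter on low counts. They were chosen with the difference between the treatment groups known, so that difference is given below as a description, with no p-value for any of the 7, and the count past a threshold is printed beside its background with nothing read from it. The mice were wild-type and female, and RNA came from cells of their inguinal fat pads enriched for macrophages with magnetic beads against F4/80. The Aldara group (4 libraries) received 62.5 mg of Aldara, a cream with 5% imiquimod, a Toll-like receptor 7 agonist, on shaved dorsal skin for 3 consecutive days. The Vehicle group (4 libraries) received the same volume of a control cream, made of Boots Aqueous Cream/10% Vaseline Lanette Cream, and all mice were killed 24 h after the last application. For a library, about 30000 cells were pooled from 6 pads, after flow cytometry had shown over 90% to be positive for F4/80 and CD64. The sources used here give neither the age of the mice nor whether the pools of a group share animals. The p-values below therefore reflect the spread among these pools, which may be technical.

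C-type lectins of this cluster have a short cytoplasmic tail, one transmembrane segment and one carbohydrate-recognition domain. One class lacks a signalling motif of its own and works through the Fc receptor gamma chain (Fcer1g), whose phosphorylation recruits the kinase Syk and then the adaptor Card9 with Bcl10 and Malt1 to activate NF-kB. Clec4e (Mincle, a receptor for mycobacterial cord factor and for the nuclear protein Sap130 of dead cells), Clec4d (Mcl, a partner of Mincle), Clec4n (Dectin-2, a receptor for fungal mannans) and Clec4b1 (Dcar) belong to it. The Clec4a genes encode the Dcir receptors, of which Clec4a2 (Dcir1) carries an inhibitory tyrosine motif that binds the phosphatases Ptpn6 and Ptpn11. Clec4a1 (Dcir4) and Clec4a3 (Dcir3) were grouped with Clec4a2 by family here, and their coupling was not measured.

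In GENCODE M21, on mm10, the build the submitters' processing notes name, the cluster runs from position 122921848 to 123289870 of chromosome 6, a span of 368 kb. It holds 9 Clec4 genes and no other protein-coding gene. Their order is Clec4a1, Clec4a3, Clec4a4, Clec4b1, Clec4a2, Clec4b2, Clec4n, Clec4d and Clec4e, with Clec4e on the minus strand and the others on the plus strand. Clec4a1 (ENSMUSG00000049037) starts the cluster at 122921848 to 122934619, and Clec4e (ENSMUSG00000030142) ends it at 123281789 to 123289870. RefSeq promoter windows (GRCm38.p6) were found for 6 of the 7 members, all but Clec4n. The window of Clec4a2 (123122440 to 123122689) lies inside that gene as placed by GENCODE (123106428 to 123143999), because RefSeq puts its start later. The 250 bases before the start are shown for Clec4a1 and Clec4b1, which were higher in Aldara, and for Clec4e, which was not. Capitals mark matches, on either strand, to a PU.1 core (GAGGAA), a C/EBP motif (TTGCNNAA), an AP-1 motif (TGANTCA) or the consensus of NF-kB or of an interferon-stimulated response element.
Clec4a1, chr6:122921598-122921847, plus strand: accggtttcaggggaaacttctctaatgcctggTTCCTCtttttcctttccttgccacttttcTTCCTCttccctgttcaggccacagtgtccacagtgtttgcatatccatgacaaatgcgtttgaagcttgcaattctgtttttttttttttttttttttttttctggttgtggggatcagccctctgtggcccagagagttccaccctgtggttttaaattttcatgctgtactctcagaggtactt
Clec4b1, chr6:123049712-123049961, plus strand: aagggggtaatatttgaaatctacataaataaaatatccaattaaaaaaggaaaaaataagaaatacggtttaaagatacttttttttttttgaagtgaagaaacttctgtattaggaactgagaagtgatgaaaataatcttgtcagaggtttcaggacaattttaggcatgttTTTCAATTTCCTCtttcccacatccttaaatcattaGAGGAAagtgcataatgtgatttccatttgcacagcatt
Clec4e, chr6:123289872-123290121, minus strand: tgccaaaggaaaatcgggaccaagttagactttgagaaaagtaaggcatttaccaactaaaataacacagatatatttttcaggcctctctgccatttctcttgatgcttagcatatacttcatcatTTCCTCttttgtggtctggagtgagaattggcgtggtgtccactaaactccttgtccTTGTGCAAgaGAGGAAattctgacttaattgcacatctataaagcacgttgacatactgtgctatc
PU.1 is a lineage factor of macrophages, and its core stood in the windows of Clec4a1, Clec4b1 and Clec4e shown above, in that of Clec4d and in 1 of the windows of Clec4a3. It was found in 23.3% of the 32851 promoter windows of that length. The C/EBP motif stood 66 bases before the start of Clec4e and in no other member window, against 9.56% of all windows. The interferon element stood 75 bases before the start of Clec4b1, overlapping a PU.1 core, and in 2.98% of all windows. Neither the AP-1 motif (6.75% of all windows) nor the NF-kB motif (1.41%) had a match in a member window.

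The 4 genes Clec4a1, Clec4a2, Clec4a3 and Clec4b1 were 6.42-fold to 9.48-fold higher in Aldara than in Vehicle. Clec4n and Clec4d were 2.1-fold and 2.07-fold higher and Clec4e had a lower mean, each with overlapping groups. The division followed the activating and inhibitory classes only in part. Clec4n, Clec4d and Clec4e work through the gamma chain, but so does Clec4b1, which stood with the Dcir genes. That exception rests on Clec4b1 alone, and a difference between the classes was not tested. Along the chromosome, the 4 genes with the large differences came before Clec4b2 in the cluster, and Clec4n, Clec4d and Clec4e after it. Clec4a4, which lies among the first of these, failed the filter on low counts. This split by position was drawn after the values were seen and was not tested. Of the 7 members, 5 passed the threshold upwards (Clec4a1, Clec4a2, Clec4a3, Clec4b1 and Clec4n) and 0 downwards in edgeR's quasi-likelihood test (Benjamini-Hochberg adjusted p under 0.05 over 16780 genes), where 6.98% of all genes tested were called higher and 3.86% lower. Their median log2 fold change (Aldara minus Vehicle) was 2.68, beside 0.00577 for all genes tested. Since that comparison chose the members, nothing is read from these counts.

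Clec4a1 measured 10.9, 18.3, 28.6 and 21 TMM-scaled CPM (counts scaled to a common library size) in Vehicle replicates 1 to 4 and 73.4, 100, 218 and 192 CPM in Aldara replicates 1 to 4. The lowest Aldara library lay above the highest Vehicle library, and the means were 19.7 ± 7.28 and 146 ± 70 CPM (SD, n = 4 each; log2 fold change 2.88, SE 0.4). Within each group the spread was wide, with replicate 1 lowest and replicate 3 highest in both groups. In bulk RNA, more cells of a type and more RNA per cell cannot be told apart.

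Clec4a2, the member known for its inhibitory motif, stood at 6.33, 10.8, 15.8 and 10.3 CPM across the Vehicle libraries, compared with 48.5, 69.9, 153 and 143 CPM under Aldara. It had the largest difference of the 7 members, 3.24 on the log2 scale (SE 0.42), and the groups were apart. Of its 50-base stretches, 6.83% also occur in transcripts of other genes, Clec4a4 and Clec4b1 among them, and it overlaps the annotated gene Gm44132, so some of its reads are uncertain. How the counting treated such reads is not stated in the sources used here.

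Clec4a3 stood at 8.86, 12.1, 18.8 and 13.3 CPM across the Vehicle libraries, compared with 45.7, 68.7, 139 and 119 CPM under Aldara (log2 fold change 2.81, SE 0.37). The groups were again apart, and the order of the libraries within each group was that of Clec4a1. No 50-base stretch of Clec4a1 or Clec4a3 occurs in another annotated gene.

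Clec4b1, the gamma-chain-coupled lectin among this group of 4, stood at 2.06, 2.56, 4.91 and 3.05 CPM across the Vehicle libraries, compared with 7.9, 15.2, 32.1 and 27.1 CPM under Aldara. The groups were apart (log2 fold change 2.68, SE 0.45). Of its 50-base stretches 8.68% also occur in Clec4a2. The groups were apart for 4 of the 7 members, each higher in Aldara, beside 9.97% of all genes tested that lay apart in that direction and 7.79% in the other.

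The lectins at the other end of the cluster differed less. Clec4n (Dectin-2) stood at 3.05, 4.2, 4.26 and 4.95 CPM across the Vehicle libraries, compared with 4.74, 6.77, 11.4 and 11.8 CPM under Aldara (log2 fold change 1.07, SE 0.29). Aldara replicate 1 fell inside the Vehicle range, so the groups overlapped. With 1 library left out in turn its log2 fold change lay between 0.87 and 1.27. In those fits Clec4n passed the threshold only without Aldara replicate 1, and with limma voom it did not pass. Since the members were chosen with this contrast known, nothing is read from its passing or failing.

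Clec4d (Mcl) stood at 2.44, 1.05, 4.69 and 1.7 CPM across the Vehicle libraries, compared with 2.9, 4.3, 6.79 and 6.87 CPM under Aldara (log2 fold change 1.05, SE 0.44). It rested on 23 to 166 counts per Vehicle library, and Vehicle replicate 3 alone exceeded 2 of the 4 Aldara libraries. Without that library the log2 fold change was 1.59, the highest value with 1 library left out in turn, where the lowest was 0.81.

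Clec4e (Mincle) was the one member with a lower mean in Aldara. It stood at 7.5, 8.45, 11.3 and 7.26 CPM across the Vehicle libraries, compared with 3.12, 5.42, 8.19 and 7.56 CPM under Aldara (log2 fold change −0.51, SE 0.28). The groups overlapped. With 1 library left out in turn its log2 fold change lay between −0.69 and −0.3.

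**Figure D1:**
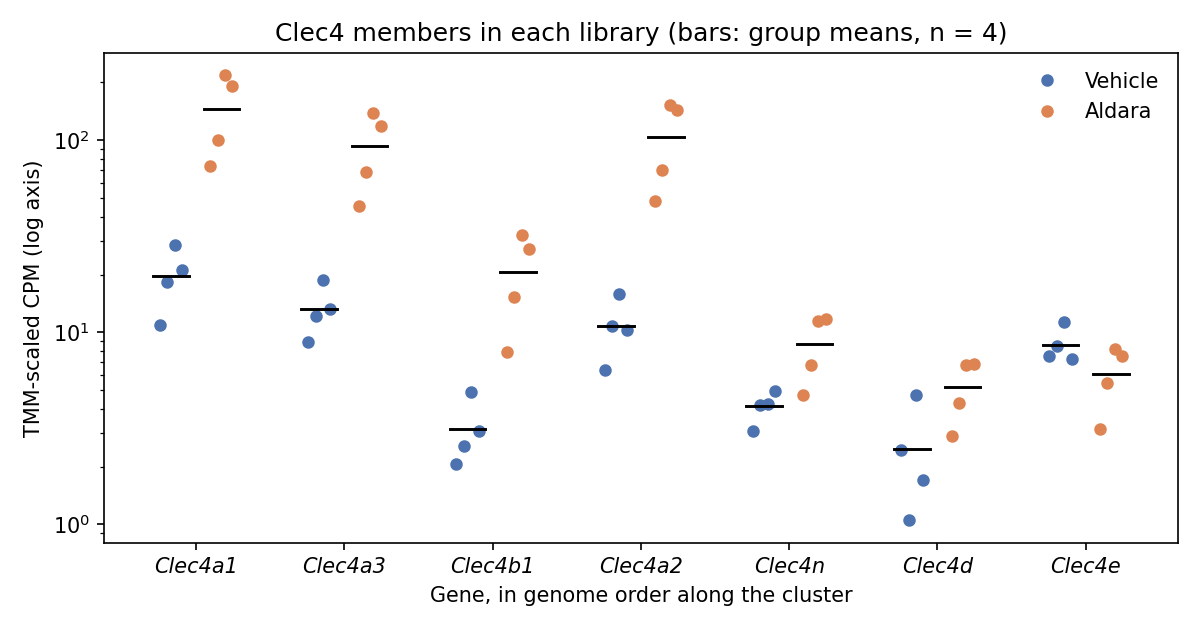
TMM-scaled CPM (log axis) of each of the 7 Clec4 genes in genome order, 1 point per library, with black bars at the group means (n = 4). Clec4a1, Clec4a3, Clec4b1 and Clec4a2 have all Aldara points above all Vehicle points, whereas the groups overlap for Clec4n, Clec4d and Clec4e.

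Clec4a4 and Clec4b2, the annotated genes of the cluster that are not among the 7, were barely detected and failed the filter on low counts. Clec4a4 (Dcir2, a lectin with an inhibitory motif known from dendritic cells) had 2 counts in all Vehicle libraries together and 22 in Aldara, of which 13 and 7 fell in Aldara replicates 3 and 4. The ratio was 13.2 (95% exact interval 3.24 to 116, counting error only), and 15.7% of its 50-base stretches are shared with Clec4a2. Clec4b2 had 0 counts in all 8 libraries, which allows up to 0.0273 CPM over the Vehicle and 0.0328 CPM over the Aldara libraries.

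Levels of different genes were compared per kilobase of annotated exon, which was 0.784 kb for Clec4b1 and 4.965 kb for Clec4e. The order depends on these lengths, since before the division Clec4e averaged 8.63 CPM and Clec4b1 3.15 CPM in Vehicle. In Vehicle, Clec4a1 stood highest at 12.6 ± 4.67 CPM per kb, followed by Clec4a3 at 9.98 ± 3.11, Clec4b1 at 4.01 ± 1.59 and Clec4a2 at 3.7 ± 1.33 CPM per kb (SD, n = 4). Clec4n at 2.9 ± 0.554, Clec4e at 1.74 ± 0.376 and Clec4d at 1.54 ± 0.99 CPM per kb came last. The ranges of each neighbouring pair in this order overlapped, except that the highest Clec4b1 library (6.27 CPM per kb) lay below the lowest Clec4a3 library (6.68 CPM per kb). Within each Vehicle library this order held, except that Clec4b1 and Clec4a2, and Clec4e and Clec4d, changed places in some libraries. The order of Aldara means was similar. Clec4a1 at 93.7 ± 44.9 and Clec4a3 at 70.3 ± 32.8 CPM per kb led again, and Clec4a2 at 35.4 ± 17.8 CPM per kb stood before Clec4b1 at 26.2 ± 14.1. Clec4n at 6.11 ± 2.45 and Clec4d at 3.26 ± 1.22 CPM per kb followed, and Clec4e was last at 1.22 ± 0.463 CPM per kb. Of the neighbouring pairs in Aldara, the ranges were apart for Clec4b1 and Clec4n (lowest 10.1 against highest 8.28 CPM per kb) and for Clec4d and Clec4e (lowest 1.82 against highest 1.65), and they overlapped for the others. Within each Aldara library the order of the Aldara means held for every pair, so the overlaps came from differences between libraries. The annotation behind the counts may be newer than the one used for these lengths.

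Ratios of members within a library need no scaling between libraries. The log2 ratio of Clec4e counts to Clec4a1 counts was −0.54, −1.11, −1.33 and −1.54 in Vehicle replicates 1 to 4 and −4.56, −4.21, −4.73 and −4.67 in Aldara replicates 1 to 4. The mean went from −1.13 ± 0.43 to −4.54 ± 0.23, a difference of −3.41, and the lowest Vehicle value lay far above the highest Aldara value. The ratio of Clec4n to Clec4a1 went from −2.2 ± 0.38 to −4.03 ± 0.16 and that of Clec4d to Clec4a1 from −3.13 ± 0.9 to −4.75 ± 0.2, with the groups apart for both. By contrast, the ratio of Clec4a3 to Clec4a1 was −0.54 ± 0.16 and −0.64 ± 0.06, and that of Clec4b1 to Clec4a1 −2.64 ± 0.21 and −2.88 ± 0.23, both with overlapping groups. The ratio of Clec4a2 to Clec4a1 was higher in Aldara, at −0.52 ± 0.07 against −0.86 ± 0.12, with the groups apart.

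The make-up of the summed Clec4 counts changed accordingly. The 7 members together gave 878 to 3128 counts in the Vehicle libraries and 4364 to 13807 in the Aldara libraries. Clec4e held 14.4% ± 2.83 of them in Vehicle (11.8% to 18.2%) and 1.65% ± 0.256 in Aldara (1.44% to 2%). The 4 gamma-chain-coupled lectins together held 27.5% to 36.6% in Vehicle and 10% to 11.7% in Aldara, although Clec4b1 alone held 5% ± 0.453 and 5.21% ± 0.662. Clec4a2 went from 17.2% ± 1.5 to 26.7% ± 1.05. These shares are of read counts and are not corrected for gene length.

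**Figure D2:**
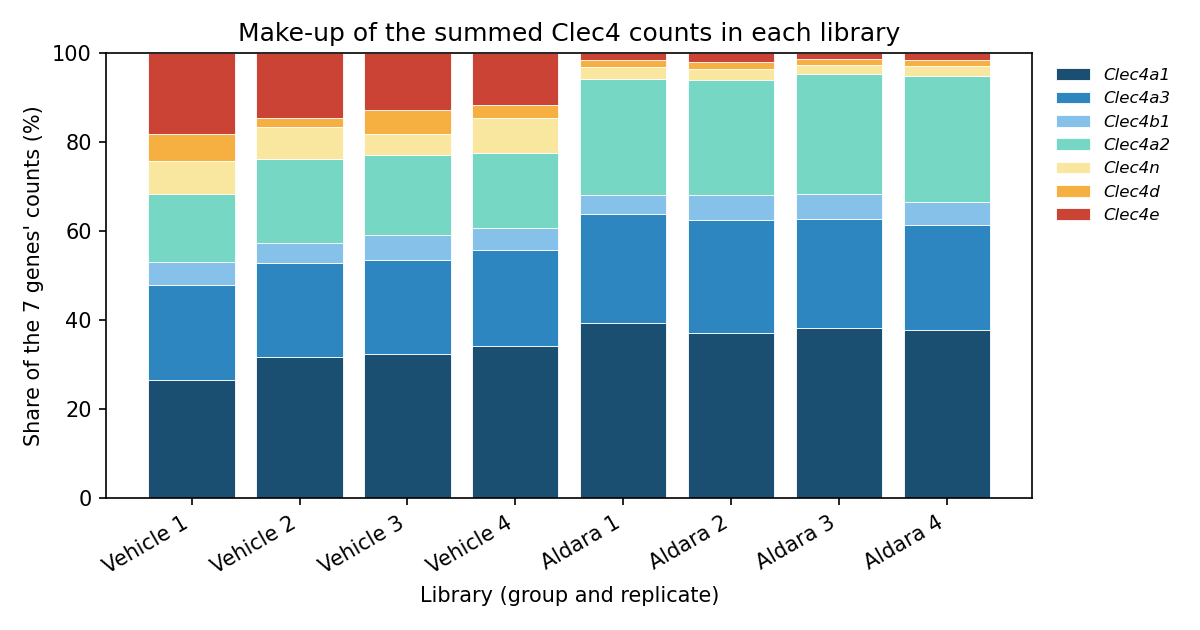
Share (%) of the counts of the 7 Clec4 genes that each gene held in each of the 8 libraries, stacked in genome order from the bottom. Clec4e, Clec4d and Clec4n at the top of the bars take 22.6% to 31.5% in the Vehicle libraries and 4.65% to 6.1% in the Aldara libraries.

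The members were also set against 20 genes expressed throughout macrophages and other leukocytes, among them Ptprc, Spi1, Csf1r, Rac2, Aif1, Itgb2 and Coro1a. The geometric mean of these genes lay between 40.7 and 66.1 CPM in Vehicle and between 97.6 and 261 CPM in Aldara, 1.72 higher on the log2 scale, and 17 of the 20 rose (edgeR adjusted p under 0.05). With the replicate block all 20 rose, Csf1r, Cd68 and Plek being added (edgeR adjusted p = 0.00114, 0.00233 and 0.0159). Rac2, a GTPase of blood cells, rose by 3.62 on the log2 scale (SE 0.36, edgeR adjusted p = 0.00148) and Aif1, an actin-binding protein of macrophages, by 2.52 (SE 0.32, adjusted p = 0.00313). Itgb2, the common beta2 integrin chain, rose by 2.84 (SE 0.36, edgeR adjusted p = 0.00313) and Coro1a, an actin regulator, by 2.35 (SE 0.33, adjusted p = 0.00448).

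Relative to that mean, Clec4a2 was 1.45 higher in Aldara on the log2 scale, Clec4a1 1.11, Clec4a3 1.02 and Clec4b1 0.87 higher. The log2 fold changes of the 20 genes themselves ran from 0.88 (Cd68) to 3.62 (Rac2). That range contains those of these members and also of Clec4n (1.07) and Clec4d (1.05), but not that of Clec4e (−0.51). Clec4e was 2.29 lower, from −2.62 ± 0.18 to −4.92 ± 0.13, and Clec4n 0.72 lower, from −3.69 ± 0.23 to −4.41 ± 0.07. The groups were apart for each of these 6 ratios. For Clec4d the groups overlapped (−4.61 ± 0.85 and −5.13 ± 0.1). With 10 macrophage markers in place of the 20 genes, each member lay higher, and the sign of all 7 differences was the same (Clec4d −0.17, Clec4n −0.37, Clec4e −1.94).

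**Figure D3:**
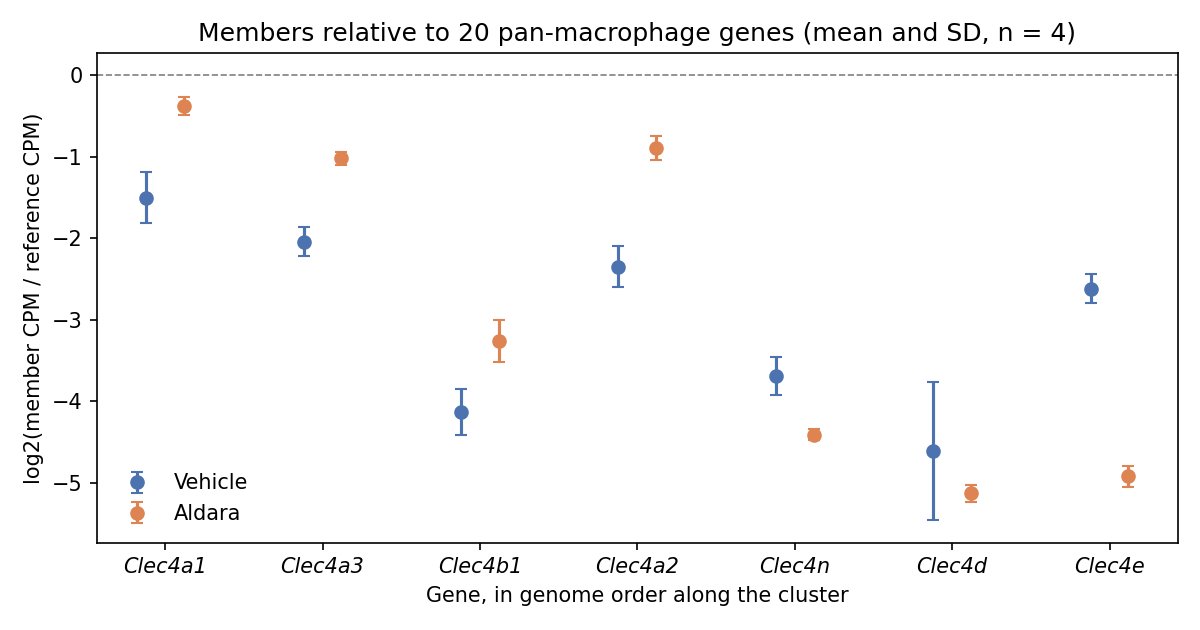
Log2 ratio of each Clec4 gene to the geometric mean of 20 pan-macrophage genes (mean and SD, n = 4 libraries a group), not corrected for gene length. Aldara lies above Vehicle for Clec4a1, Clec4a3, Clec4b1 and Clec4a2 and below it for Clec4n and Clec4e, while the error bar of Vehicle covers Aldara for Clec4d.

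Between libraries of a group the members moved together. On deviations of log2 CPM from the group means over the 8 libraries, Pearson correlations were 0.96 to 0.99 among Clec4a1, Clec4a2, Clec4a3 and Clec4b1. Clec4e correlated with those 4 genes at 0.87 to 0.96 and Clec4n at 0.89 to 0.92, whereas Clec4d correlated with the other 6 members at 0.43 to 0.74. The 20 pan-macrophage genes gave 0.94 to 0.98 with each member other than Clec4d, for which the value was 0.62. Clec4e thus followed these genes from library to library within a group (0.95). Its mean was nevertheless lower in Aldara, with overlapping groups, where theirs was higher. These points share libraries and depth, and the values are descriptions.

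The 10 protein-coding genes outside the members, with at least 5 CPM on average, whose deviations were most like the members' mean deviation were Cd68, Evi2a, Epsti1, Arrb2, Snx5, Tnfaip8l2, Ctsc, Cd84, E2f1 and Apobec1. Their correlations were 0.988 or more over 8 libraries, while the median over the 10995 genes considered was −0.06 and 3.69% exceeded 0.9. Cd68, a lysosomal glycoprotein of macrophages, stood at 72.6 ± 17.3 CPM without and 133 ± 47.3 CPM with Aldara, and Ctsc, a lysosomal protease, 193 ± 49.5 and 459 ± 173 CPM.

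The signalling chain below the activating lectins was tested gene by gene over the whole table. Of 20 genes of this chain 13 rose with Aldara and 0 fell in edgeR's test (15 and 0 under the replicate block). Their median log2 fold change was 1.57, beside 1.68 for the pan-macrophage genes. Fcer1g, the shared gamma chain, rose by 2.35 on the log2 scale, from 43 ± 10.1 to 219 ± 112 CPM (SE 0.37, edgeR adjusted p = 0.00638). Syk, the kinase it recruits, rose by 1.91 on the log2 scale, from 38.3 ± 9.09 to 144 ± 59 CPM (SE 0.31, edgeR adjusted p = 0.00666). Lyn, a kinase of the Src family that phosphorylates such signalling chains, rose by 1.66 (SE 0.26). Pik3ap1, an adaptor of phosphoinositide 3-kinase, rose by 2.64 (SE 0.3) and Vav1, a guanine nucleotide exchange factor, by 2.5 (SE 0.4). These 3 genes were higher in every Aldara library than in any Vehicle library.

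Card9, the adaptor of this pathway, measured 4.8 ± 0.659 and 8.37 ± 2.84 CPM and did not pass the test (log2 fold change 0.8, SE 0.24, edgeR adjusted p = 0.059), but passed it with the replicate block (edgeR adjusted p = 0.0353). Bcl10 rose from 82.8 ± 6.15 to 105 ± 12 CPM (edgeR adjusted p = 0.0469), and Malt1 measured 34.8 ± 3.27 and 33.5 ± 3.46 CPM (edgeR adjusted p = 0.792). Sap130, whose protein is a ligand of Mincle, measured 50.1 ± 1.83 and 58 ± 1.27 CPM (log2 fold change 0.21, SE 0.07, edgeR adjusted p = 0.0816).

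Of 10 genes of inhibitory signalling 5 rose and 0 fell (6 and 0 under the replicate block), and the median log2 fold change was 0.51. Ptpn6, the phosphatase that Dcir recruits, rose by 1.3 on the log2 scale, from 46.9 ± 2.83 to 115 ± 42 CPM (SE 0.23, edgeR adjusted p = 0.0102), and Inpp5d, a lipid phosphatase, from 29.8 ± 5.26 to 89.5 ± 37.9 CPM (1.58, SE 0.3, adjusted p = 0.0115). Dok3 and Dok2, adaptors that dampen Syk signalling, rose by 1.84 (SE 0.31) and 1.26 (SE 0.32), and Cyld, a deubiquitinase, by 0.29 (SE 0.08). Ptpn11 measured 144 ± 11.6 and 157 ± 14.3 CPM (edgeR adjusted p = 0.453), and Dok1 11.4 ± 1.97 and 17.9 ± 4.59 CPM (edgeR adjusted p = 0.0524, and 0.036 with the replicate block). The number of genes called here was 2 without the filter on low counts and 3 with limma voom. It was also 3 without any 1 of the 4 Vehicle libraries or Aldara replicate 2, 3 or 4.

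**Figure D4:**
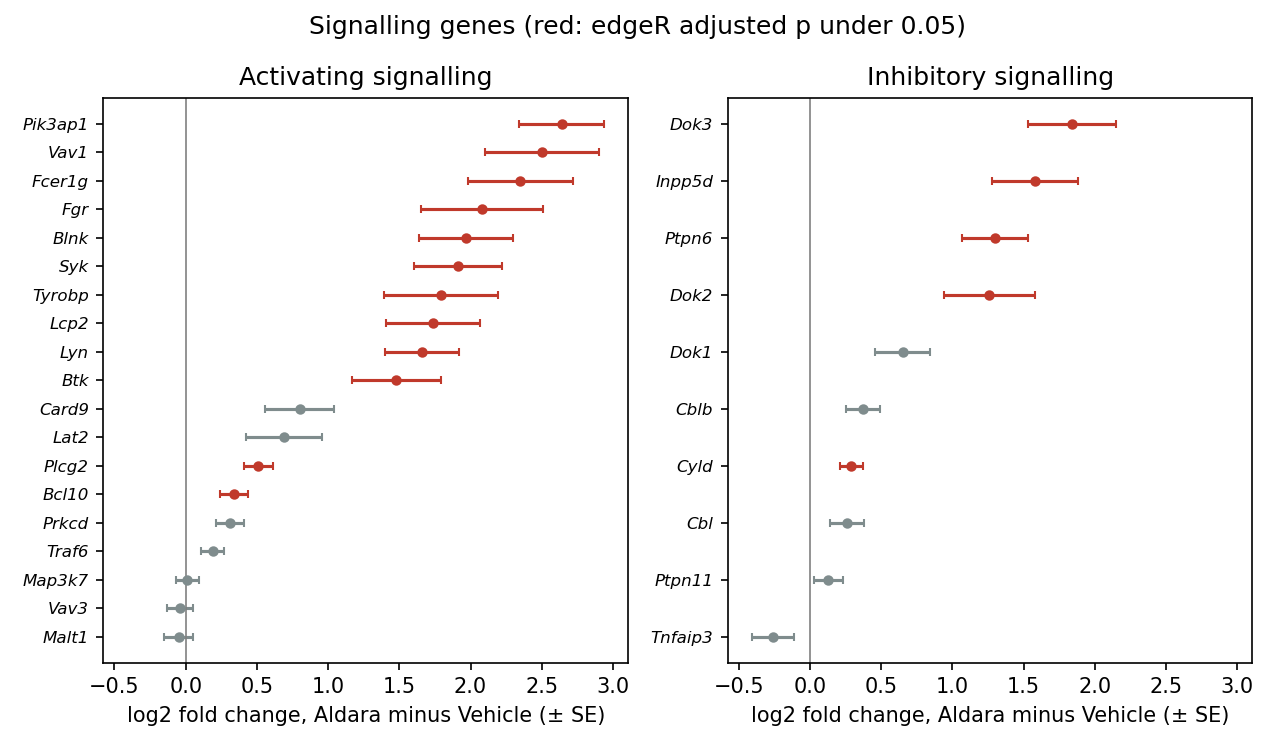
Log2 fold change (Aldara minus Vehicle, with SE, n = 4 libraries a group) of genes of the activating chain (1 of the 20 counted is not drawn) and 10 genes of inhibitory signalling, in red where the edgeR adjusted p was under 0.05. Pik3ap1, at 2.64, has the largest value of the genes drawn, while Malt1 lies at −0.05 and Map3k7 at 0.01.

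Genes that this pathway is known to induce moved both ways. Of 16 tested genes 3 rose and 1 fell (5 and 3 under the replicate block), and the median log2 fold change was 0.25. Besides Tnf, given below, the block added Ccl3 upwards (edgeR adjusted p = 0.00101) and Il6 and Cxcl2 downwards (edgeR adjusted p = 0.0101 and 0.0238). Ccl4, a chemokine, rose from 17.1 ± 4 to 42.7 ± 20.4 CPM (edgeR adjusted p = 0.0366), and the transcription factors Egr2 and Egr3 rose by 0.82 (SE 0.19, adjusted p = 0.0221) and 0.73 (SE 0.14, adjusted p = 0.00938). Nlrp3, an inflammasome sensor, fell by 1.19 on the log2 scale, from 39.5 ± 8.47 to 17.3 ± 7.99 CPM (SE 0.32, edgeR adjusted p = 0.0458, and 0.00209 with the replicate block). The call on Nlrp3 was lost without any 1 of the 4 Vehicle libraries, without Aldara replicate 2 or 4 and without the filter on low counts, and 1 gene rose in place of 3 when Vehicle replicate 1, 2 or 4, or else Aldara replicate 3 or 4, was left out. Il1b measured 54.3 ± 15.9 and 62.1 ± 29.2 CPM and Tnf 24.5 ± 3.24 and 34.7 ± 7.43 CPM, and neither passed the test (edgeR adjusted p = 0.763 and 0.0576), though Tnf did with the replicate block (edgeR adjusted p = 0.0142).

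Among 27 C-type lectins outside the cluster, 22 were tested, of which 4 rose and 3 fell, and the median log2 fold change was 0.11. Under the replicate block 6 rose and 4 fell, with Clec2d (edgeR adjusted p = 0.0273) and the mannose receptor Mrc1 (0.0102) added upwards and Mrc2 (0.0177) downwards. Clec12a, an inhibitory lectin of myeloid cells, rose by 2.22 on the log2 scale, from 9 ± 3.87 to 42.5 ± 18.7 CPM (SE 0.39, edgeR adjusted p = 0.00886), and Cd209g rose by 2.68 (SE 0.36, adjusted p = 0.00386). Clec7a (Dectin-1, a receptor for fungal beta-glucan that also uses Syk and Card9) measured 10.5 ± 3.94 and 7.54 ± 4.65 CPM (log2 fold change −0.49, SE 0.46, edgeR adjusted p = 0.567). Mgl2, a galactose-type lectin, fell by 3.79 (SE 0.29, adjusted p = 0.000794) and Cd209a, a marker of monocyte-derived dendritic cells, by 1.95 (SE 0.26, adjusted p = 0.00232), both on the log2 scale in edgeR's test. Without the filter on low counts, 1 of these lectins rose in place of 4.

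Of the cell types known to express Clec4 lectins, neutrophils and monocytes were gauged by marker lists. Of 13 neutrophil markers 10 stayed under 1 CPM in every library, Ly6g had 0 counts in all 8, Cxcr2 averaged 0.0161 CPM without and 0.0203 CPM with Aldara, and S100a8 0.0925 and 0.507 CPM. The summed list lay between 227 and 532 CPM in Vehicle and between 494 and 668 CPM in Aldara, most of it from Ltf (357 ± 133 and 477 ± 112 CPM), which mammary epithelium also makes. Csf3r and Mmp9, the other markers that reached 1 CPM, rose (edgeR adjusted p = 0.00886 and 0.0205). The 12 monocyte markers summed to between 1110 and 1480 CPM in Vehicle and between 1290 and 2040 CPM in Aldara, with 2 risen, 1 fallen and none at 0 in all libraries (3 risen and 1 fallen under the replicate block). Cd300e, an activating receptor of monocytes, rose from 0.119 ± 0.144 to 17.1 ± 8.42 CPM (edgeR adjusted p = 0.000956), and Spn, the sialoglycoprotein CD43, from 0.952 ± 0.533 to 9.72 ± 4.45 CPM (adjusted p = 0.004). Plac8 fell from 51.4 ± 12.3 to 24.8 ± 2.77 CPM (edgeR adjusted p = 0.00518), and Ccr2, at 22.5 ± 7.02 and 18.8 ± 7.47 CPM, did not pass the test (adjusted p = 0.674). The 10 dendritic-cell markers summed to between 24.8 and 32.2 CPM in Vehicle and between 21 and 43.3 CPM in Aldara, with Wdfy4 risen (edgeR adjusted p = 0.0405) and Cd209a and Siglech fallen (adjusted p = 0.00232 and 0.0163). Macrophage markers summed to between 1430 and 2980 CPM in Vehicle and between 3360 and 9190 CPM in Aldara, with 5 of 10 risen (9 under the replicate block). Epithelial markers, which do not belong to the labelled cell type, summed to 12600 to 17300 CPM in Vehicle and 12400 to 16000 CPM in Aldara, and 0 of 10 passed edgeR's test (Krt19 had an unadjusted p under 0.05, and with the replicate block 1 rose and 1 fell). Fibroblast markers summed to 167 to 437 CPM in Vehicle and 52.2 to 109 CPM in Aldara, and 4 of 5 fell in edgeR's test, among them the collagen genes Col3a1 (log2 fold change −2.13) and Col1a1 (−1.61). Adipocyte markers summed to 1.84 to 3.43 and 4.42 to 9.39 CPM, and Adipoq and Cidec rose (edgeR adjusted p = 0.0356 and 0.00771), 2 of 5. B-cell markers summed to 0.411 to 0.996 and 3.8 to 9.1 CPM, with Cd79b the one tested and risen. Mast-cell markers (230 to 312 and 185 to 360 CPM), endothelial markers (403 to 589 and 343 to 604 CPM) and T or NK-cell markers (1.83 to 3.61 and 2.63 to 5.23 CPM) had overlapping sums. The part of these cell types in the Clec4 values was not tested.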

How the data were processed

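RNA was measured by poly-A sequencing with a SMARTer low-input kit, which does not mark the strand, in 4 Vehicle and 4 Aldara libraries. The values deposited by the authors are raw read counts, in whole numbers, for each gene. Per the submitters' processing notes they used HISAT2 2.0.5, featureCounts 1.5.0-p3 and DESeq2 with mm10. The annotation release and the counting options are not stated there. Exon lengths and positions came from GENCODE M21. Symbols of the count rows came from a separate list of gene names, which gave one for 91.8% of identifiers. Some identifiers are newer than M21. The members and gene lists were chosen with earlier results of these data known.

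Total counts per library ranged from 19537607 to 34471508, so 1 count was worth 0.0282 to 0.0532 CPM. Intervals and floors (3 counts) cover counting error only. Counts were tested with edgeR 4.0.16 in R 4.3.3 (filterByExpr, TMM factors, robust quasi-likelihood F test, Benjamini-Hochberg adjustment over 16780 genes, threshold 0.05). The procedure was tried on simulated counts drawn independently for each gene and library. They lacked the joint movement of genes between libraries seen here. Across all genes 1171 rose and 647 fell (64.4% rising, and 49.7% with upper-quartile factors). CPM are TMM-scaled, and log2 CPM had 0.5 counts added. No 2 libraries of a group agreed within sampling noise (lowest chi-square per degree of freedom 18.4). The replicate numbers of the labels are shared by the groups, and deviations of same-numbered libraries correlated at 0.109 to 0.212 in all 4 pairs. The fit with the replicate number as a block is therefore given beside the counts of the gene lists where it changes them. Other alternatives were RLE and upper-quartile factors, other filters, DESeq2 1.42.0, limma 3.58.1 voom and leaving out each library. Motifs were searched in the 250 bases before each RefSeq start.

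All members were named. Beyond them, Clec4a4, Clec4b2, Sap130, Fcer1g, Syk, Card9, Ptpn6, Ptpn11, Inpp5d and Clec7a were named, then up to 4 further genes of each list by smallest p, the 10 genes most like the members, the nearest 3 genes on each side of the cluster, and defining markers. Bcl10, Malt1, Map3k7, Il1b, Tnf, Ccl3, Il6, Cxcl2, Plek, Clec2d, Mrc1, Mrc2, Plac8, Cd300e, Spn, Wdfy4, Siglech, Cidec and Cd79b were named after their values were seen. 1 gene of the activating chain was counted in its list but is not reported here. Protein sequences were not used here.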

Additional observations from a re-analysis of the deposited data

How the results depend on the processing

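Of the 7 members, the sign of the log2 fold change was the same under all alternatives run. The count of members called higher stayed within 1.5 times, and their median log2 fold change ran from 2.39 to 2.99 with 1 library left out in turn. The call on Clec4n was lost with limma voom and when any 1 library other than Aldara replicate 1 was left out. Without Vehicle replicate 3, Clec4d was called in its place. These calls describe how the count of members varied, and nothing is read from them. With the 10 macrophage markers as reference, Clec4a1 lay 1.47, Clec4a3 1.37, Clec4b1 1.22 and Clec4a2 1.8 higher, with Clec4n at −0.37 and Clec4e at −1.94. Genes called lower over the whole table numbered 990 with upper-quartile factors, 1192 with DESeq2 and 1030 with the replicate block, against 647. In inhibitory signalling 2 genes rose without the filter on low counts and 3 with limma voom. Among the genes known to be induced through Card9, 0 fell without that filter, and 5 rose and 2 fell with DESeq2. With the replicate block 5 of them rose and 3 fell, and macrophage markers risen went from 5 to 9. Whether these genes depended on Card9 here was not tested. Other C-type lectins rose in 1 case without the filter. The causes were not tested. With 1 library left out, genes called higher numbered 629 to 1405 and lower 323 to 664. They numbered 703 and 415 without Vehicle replicate 1, 699 and 412 without Vehicle replicate 2, and 658 and 323 without Aldara replicate 3. Without Aldara replicate 2, 353 were lower, and without Aldara replicate 4, 629 were higher. Inhibitory genes risen then numbered 3 to 6, and of the genes known to be induced through Card9, 1 to 4 rose and 0 to 1 fell. Depth limits Clec4d, with as few as 23 counts in a library, and Clec4a4, with 2 counts in Vehicle.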

Other observations

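The genes flanking the cluster were read as well. On the side of Clec4a1, Necap1, an endocytosis protein 32.9 kb away, stood at 39.4 ± 3.67 CPM without and 42.5 ± 3.94 CPM with Aldara, and did not pass edgeR's test (adjusted p = 0.54). C3ar1, the receptor of the complement fragment C3a, lies 65.7 kb away and rose by 2.07 on the log2 scale, from 47.5 ± 12.1 to 200 ± 98.1 CPM (SE 0.36, edgeR adjusted p = 0.00896). Foxj2, a transcription factor 76.5 kb away, measured 52 ± 5.05 and 55.8 ± 1.9 CPM (edgeR adjusted p = 0.508). On the side of Clec4e the nearest genes are the vomeronasal receptors Vmn2r19, Vmn2r20 and Vmn2r21, each with 0 counts in all 8 libraries.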
